A study of Mus musculus with 8 samples.

Results

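The genes described here encode the aminoacyl-tRNA synthetases, the enzymes that join each amino acid to its own transfer RNA. Cytosolic and mitochondrial protein synthesis mostly use separate synthetases, all of them encoded in the nucleus, so the supply of charged tRNA to the cytosol and to the mitochondrial matrix rests on different genes. Many cytosolic synthetase genes are textbook targets of ATF4, the transcription factor that the integrated stress response turns on when amino acids run short or when unfolded proteins build up in the endoplasmic reticulum (ER). The list was taken by gene symbol, with 37 genes out of 23337 symbols in the count files. It holds 18 cytosolic enzymes, 16 mitochondrial enzymes, which carry the suffix 2, and 3 genes that are shared or single. Of the latter, Gars (glycine) and Kars (lysine) each make a cytosolic and a mitochondrial enzyme from the same gene, and Qars (glutamine) has no mitochondrial partner because mitochondria make charged glutamine tRNA with an amidotransferase. Every one of the 37 had enough counts to be tested, among 14328 tested genes.

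RNA was sequenced from liver of C57BL/6 mice aged 12 weeks. The 4 groups were WT fasted, HRD1Alb fasted, WT refed and HRD1Alb refed, with 2 samples each and 8 in all. Fasted mice had an overnight fast, and refed mice were given food for 4 h after it. HRD1Alb mice, whose genotype is labelled Hrd1-/-, carry a floxed Hrd1 gene (Syvn1 in the files). Alb-Cre deletes it under the albumin promoter, which is active in hepatocytes. The paper places this deletion early in liver development, and which other liver cells keep the gene was not measured here. HRD1 is a ubiquitin ligase of the ER membrane that marks misfolded proteins for degradation. The comparisons asked how its loss changed synthetase transcripts in each feeding state, and how refeeding changed them in each genotype. Labels do not say that the 2 samples of a group came from separate animals, and p-values measure only the spread between these samples. In bulk tissue, fewer cells of a type and less RNA per cell cannot be told apart.

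Total counts ranged from 40210576 to 49117080 per sample, and the 37 genes took 0.164 to 0.326% of them. Levels are given in CPM, read counts scaled to the size of the library with TMM factors, and 3 counts equal 0.0611 to 0.0746 CPM, well under the level of every synthetase. All 8 hepatocyte markers were detected in every sample. Their summed level was 115800 to 159100 CPM in WT and 69730 to 108900 CPM in HRD1Alb samples. Most of it was Alb, with 101100 of 147400 CPM in WT fasted replicate 1. The TMM factors were 0.837 to 0.952 in WT and 0.992 to 1.22 in HRD1Alb samples, and without them the hepatocyte sums of the genotypes overlapped. The 8 macrophage markers summed to 94.3 to 109.3 CPM in WT and 225 to 475 CPM in HRD1Alb samples. HRD1Alb refed replicate 2 stood apart. Relative to replicate 1 of its group, its levels declined with transcript length (Spearman rho = -0.558 across 12968 genes, against -0.114 to 0.0268 in the other groups), and 3204 genes differed 2-fold between these 2 samples.

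The deleted gene was read first as a check of the labels. Syvn1 stood at 110.7 and 99.8 CPM in WT fasted, 32.6 and 31.5 CPM in HRD1Alb fasted, 637 and 305 CPM in WT refed, and 453 and 132 CPM in HRD1Alb refed samples. The fasted genotypes did not overlap. In refed liver they did, because the library labelled HRD1Alb refed replicate 1 held more Syvn1 than WT refed replicate 2. The log2 fold change of HRD1Alb against WT was -1.72 in fasted liver (edgeR adjusted p = 0.17) and -0.69 in refed liver (adjusted p = 0.391). Counts cover the whole gene and all liver cells, so they do not isolate the deleted exons, and every direction below rests on the labels.

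Per kilobase of the longest annotated transcript, the synthetases spanned a wide range of levels in WT fasted liver. The highest were Dars (aspartate) at 51.0, Tars (threonine) at 48.3, Nars (asparagine) at 43.8 and Aars (alanine) at 39 CPM per kb. The lowest were Mars2 (methionine) at 0.361, Wars2 (tryptophan) at 1.32, Pars2 (proline) at 1.42 and Ears2 (glutamate) at 2.57 CPM per kb, all mitochondrial, with Mars2 read over a model of 11294 bases. In 11 of 13 pairs of enzymes for the same amino acid, the cytosolic gene had the higher level per kb in WT fasted liver; the exceptions were Iars/Iars2 (isoleucine) with a ratio of 0.859 and Lars/Lars2 (leucine) with a ratio of 0.945. In HRD1Alb refed liver Aars led the list at 80.5 CPM per kb, ahead of Nars at 60.8.

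**Figure D1:**
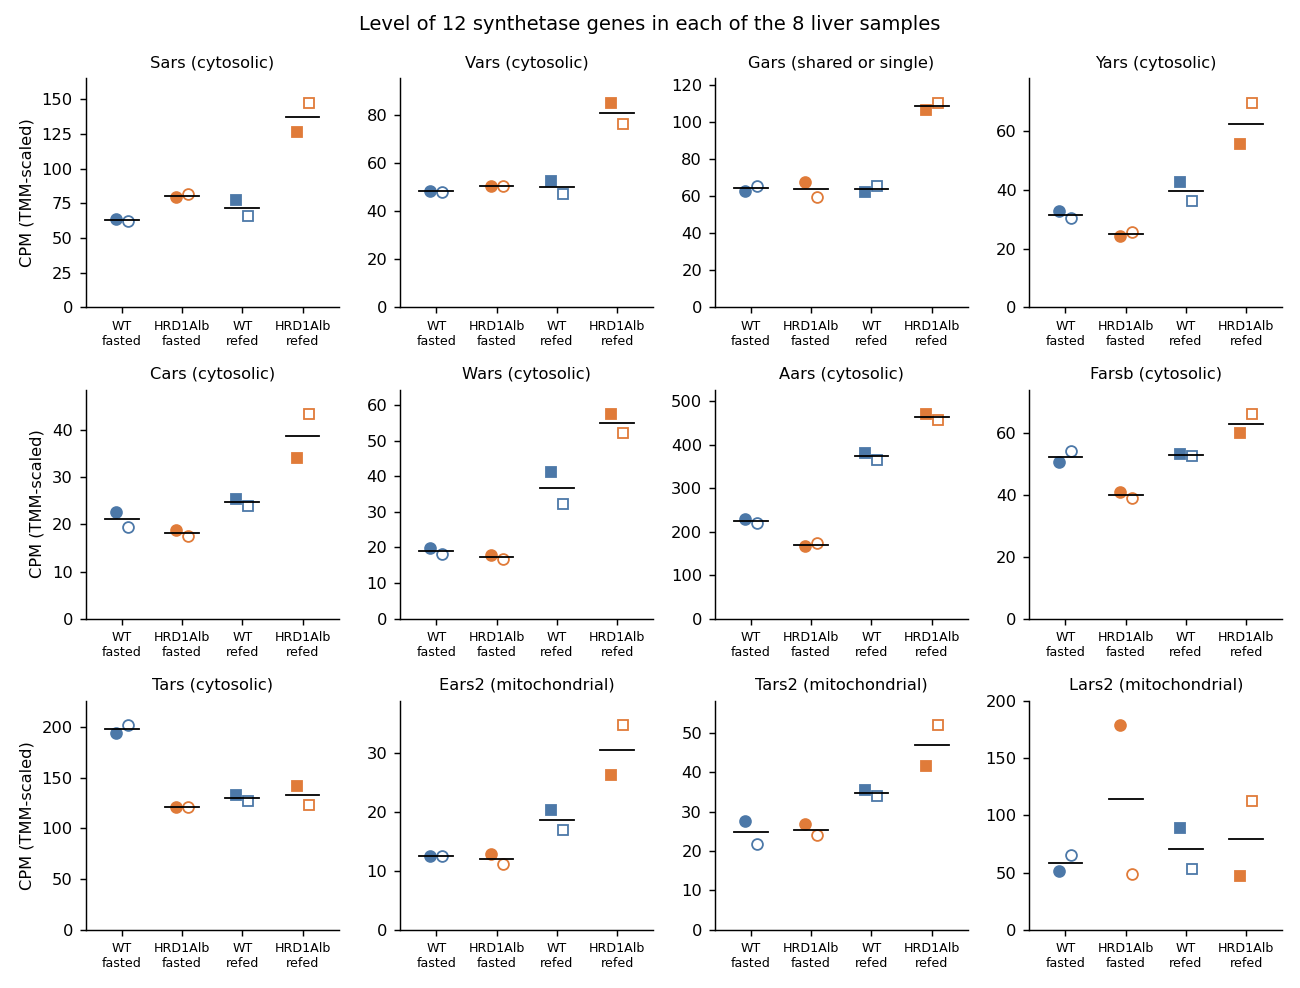
Level of 12 synthetase genes in each sample, in TMM-scaled CPM on a linear axis from 0; filled symbols are replicate 1, open symbols replicate 2, circles fasted, squares refed, blue WT, orange HRD1Alb, and lines the mean of 2 samples. In Sars, Vars and Gars both HRD1Alb refed samples sat above the other 6 samples, whereas the 2 HRD1Alb samples of each feeding state lay far apart in Lars2.

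In refed liver, 3 synthetase genes were higher in HRD1Alb than in WT samples and none was lower. They were Sars (serine) and Vars (valine), which serve the cytosol, and Gars (glycine), which serves both compartments, with 1.61- to 1.91-fold higher levels. None of the 16 mitochondrial enzymes passed the threshold. Among all tested genes 7.09% were called higher and 4.84% lower in this comparison, so 3 of 37 is close to the background. The median log2 fold change was 0.33 over the cytosolic, 0.56 over the shared and 0.10 over the mitochondrial genes, beside 0.04 over all genes.

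Sars, on chr3:108424865-108445209 (GRCm38, minus strand), read 64.0 and 62.1 CPM in WT fasted, 79.4 and 81.7 CPM in HRD1Alb fasted, 77.6 and 66.0 CPM in WT refed, and 126 and 147 CPM in HRD1Alb refed samples. Both HRD1Alb refed samples exceeded the other 6. The log2 fold change in refed liver was 0.93 ± 0.16 (SE, n = 2 per group, edgeR adjusted p = 0.019).

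Gars, on chr6:55038007-55079500 (plus strand), read 63.0 and 65.5 CPM in WT fasted, 67.7 and 59.6 CPM in HRD1Alb fasted, 62.2 and 65.4 CPM in WT refed, and 106.5 and 110.1 CPM in HRD1Alb refed samples. With TMM factors the 3 other groups overlapped and the HRD1Alb refed samples stood alone above them. The log2 fold change in refed liver was 0.76 ± 0.15 (SE, edgeR adjusted p = 0.0246). Vars, on chr17:35000987-35016322 (plus strand), was at 48.5 and 48.0 CPM in WT fasted, 50.6 and 50.4 CPM in HRD1Alb fasted, 52.7 and 47.2 CPM in WT refed, and 84.9 and 76.3 CPM in HRD1Alb refed samples. Its pattern with TMM factors was the same, a level near 50 CPM in 3 groups and a higher level in the fourth. The log2 fold change in refed liver was 0.69 ± 0.15 (SE, edgeR adjusted p = 0.0311). With library totals the HRD1Alb fasted samples of both genes lay above WT fasted ones. Gars then read 75.0 and 67.2 against 55.2 and 54.8 CPM, and Vars 56.0 and 56.8 against 42.5 and 40.2 CPM. The HRD1Alb refed samples of both genes stayed the highest.

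Several others were higher in both HRD1Alb refed samples without passing the threshold. Their log2 fold changes were 0.71 for Ears2, 0.66 for Yars (tyrosine), 0.65 for Cars (cysteine), 0.58 for Wars (tryptophan) and 0.56 for Kars, with edgeR adjusted p from 0.0503 to 0.0821. At an unadjusted p under 0.05 there were 12 genes, 10 with a positive and 2 with a negative change, with no share of all genes taken at that threshold. Both HRD1Alb samples exceeded both WT samples in 10 of 18 cytosolic genes and 4 of 16 mitochondrial genes, where 30.7% of all genes did so. Both lay below in 1 cytosolic gene and 2 mitochondrial genes, where 30.1% of all genes did so.

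At the lower end of each class, no gene was called. Hars2 (mitochondrial histidine enzyme) had a log2 fold change of -0.40 (edgeR adjusted p = 0.12), with 38.0 and 39.9 CPM in WT refed and 28.4 and 30.9 CPM in HRD1Alb refed samples, after 35.8 and 31.0 CPM in WT fasted and 27.1 and 28.2 CPM in HRD1Alb fasted samples. HRD1Alb samples were the lower ones in both feeding states with TMM factors, and in refed liver alone when counts were scaled by library totals instead (added after the data were seen), where the fasted groups overlapped. Tarsl2, a second cytosolic threonine enzyme, read 20.1 and 21.2 CPM in WT fasted, 17.1 and 17.4 CPM in HRD1Alb fasted, 19.2 and 19.5 CPM in WT refed, and 19.0 and 12.0 CPM in HRD1Alb refed samples. Its refed change of -0.32 came mostly from HRD1Alb refed replicate 2. Qars read 62.9 and 66.5 CPM in WT fasted, 62.3 and 64.8 CPM in HRD1Alb fasted, 75.6 and 69.5 CPM in WT refed, and 62.9 and 62.3 CPM in HRD1Alb refed samples, a refed change of -0.21. Gars and Kars had positive refed changes and Qars a negative one with TMM factors, which with library totals was 0.01.

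These refed calls depended on a few libraries and on the shared estimate of the spread. Without HRD1Alb refed replicate 2, the sample with the length trend, 10 synthetases were called (8 higher, including Sars, Vars and Gars, and 2 lower, Mars and Hars2, with 23.7% of all genes called), and without replicate 1 of that group 20 were called (52.8% of all genes). Leaving out either HRD1Alb fasted library left 0 called (2.83 to 2.91% of all genes), and so did leaving out either WT refed library, where only 1 or 2 of all genes were called. Leaving out either WT fasted library left Sars alone (5.11 to 5.28% of all genes). A fit to the 4 refed samples alone called 0 synthetases and 0 of all 13835 genes. DESeq2 called 7 of the 37, or 18.9%, where it called 22.3% of all genes. Markers of other cells moved with this comparison. Of the macrophage markers 7 of 8 were called higher in HRD1Alb refed liver, with a median log2 fold change of 1.47 over the list, and of the stellate and fibroblast markers 3 of 7 (Des, Col1a1 and Col3a1), with a median of 1.57. The latter summed to 144.7 and 178.8 CPM in WT refed and to 434.6 and 312.6 CPM in HRD1Alb refed samples. Ptprc, 1 of 6 markers of other leukocytes, was also called higher, and Apob, 1 of 8 hepatocyte markers, lower, whereas 0 of 6 endothelial and 0 of 5 cholangiocyte markers were called. The part of these cells in the synthetase differences was not tested.

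**Figure D2:**
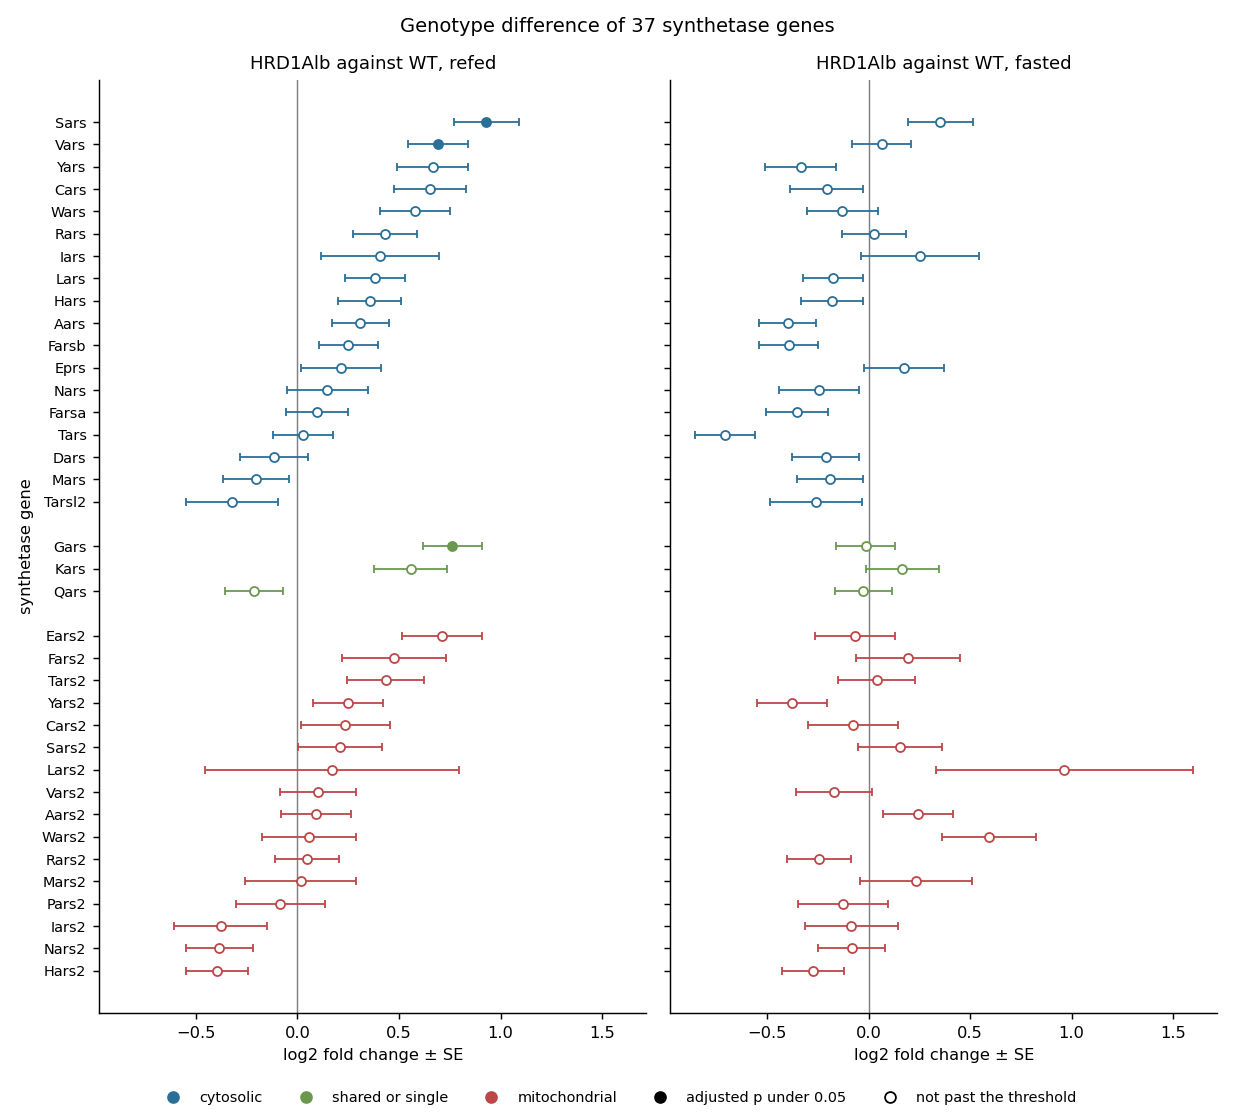
Log2 fold change of HRD1Alb against WT (x axis, with SE) for each of the 37 synthetase genes (y axis, grouped by class and ordered by the refed value), in refed (left) and fasted liver (right); filled points have an edgeR adjusted p under 0.05. Filled points are Sars, Vars and Gars in refed liver, and there is none in fasted liver, where 13 of 18 cytosolic genes lie left of 0 with the TMM factors plotted, a side that turns for most of them with library totals.

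In fasted liver, no synthetase gene was called by edgeR in either direction, against 0.921% of all genes called higher and 0.433% lower. At an unadjusted p under 0.05 there were 4 genes, Tars, Aars and Farsb (the beta subunit of the phenylalanine enzyme) with negative changes and Wars2 with a positive one. Here too the share of all genes at that threshold was not taken. DESeq2 called 1, Tars, as lower (7.64% of all genes), and limma-trend called 0. Without either HRD1Alb refed library, which is not in this comparison but shares in the estimate of the spread, edgeR called 7, with Aars, Farsa, Farsb, Tars and Yars2 lower and Sars and Wars2 higher, and 21.3 to 21.7% of all genes were called. The median log2 fold change was -0.20 over the cytosolic, -0.01 over the shared and -0.07 over the mitochondrial genes, beside -0.02 over all genes. Both HRD1Alb samples lay below both WT samples in 13 of 18 cytosolic genes and in 6 of 16 mitochondrial genes, compared with 34.2% of all genes.

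The sign of the cytosolic median in fasted liver turned with the scaling. With library totals in place of TMM factors it was 0.18, and the median over all genes also moved, from -0.02 to 0.36. Relative to all genes the cytosolic median was -0.17 with TMM and -0.18 with library totals. The separation of the samples turned as well: with library totals both HRD1Alb samples lay above both WT samples in 13 of 18 cytosolic and 12 of 16 mitochondrial genes (66.8% of all genes) and below them in 1 cytosolic gene, Tars. In refed liver both HRD1Alb samples then lay above in 11 of 18 cytosolic and 10 of 16 mitochondrial genes, where 42.7% of all genes did so. Dropping TMM factors shifted the median of all genes by 0.22 for the refed genotype comparison, by 0.15 for refeeding in WT and by -0.01 for refeeding in HRD1Alb liver.

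Tars, singled out after its values were seen, had the lowest fasted change. It stood at 193.7 and 201.5 CPM in WT fasted, 121.2 and 121.0 CPM in HRD1Alb fasted, 132.5 and 127.2 CPM in WT refed, and 141.8 and 122.9 CPM in HRD1Alb refed samples. Both WT fasted samples exceeded the other 6, which lay within 121.0 to 141.8 CPM; with library totals HRD1Alb refed replicate 1, at 172.9 CPM, was above them. The log2 fold change was -0.71 for genotype in fasted liver (edgeR adjusted p = 0.0677) and -0.61 for refeeding in WT liver (adjusted p = 0.09). Lars2, also chosen after its values were seen, had the largest positive change in fasted liver, 0.96 (edgeR adjusted p = 0.479), but this came from a single sample. Its levels were 51.2 and 65.8 CPM in WT fasted, 179.0 and 49.1 CPM in HRD1Alb fasted, 88.7 and 53.1 CPM in WT refed, and 46.6 and 112.9 CPM in HRD1Alb refed samples. It was the only synthetase whose replicates differed 2-fold in either HRD1Alb group.

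Refeeding raised 14 of the 37 synthetase genes in HRD1Alb liver and lowered none. Among all genes 5.43% were called higher and 5.05% lower in this comparison, which shares the HRD1Alb refed samples with the refed genotype comparison. The 14 were 10 of 18 cytosolic genes (Aars, Cars, Farsa, Farsb, Hars, Rars, Sars, Vars, Wars and Yars), 1 of 3 shared genes (Gars) and 3 of 16 mitochondrial genes (Ears2, Tars2 and Yars2). The median log2 fold change was 0.70 over the cytosolic, 0.51 over the shared and 0.34 over the mitochondrial genes, beside 0.02 over all genes. In WT liver, refeeding raised 2, Aars and Wars, and lowered none, against 1.20% of all genes called higher and 1.41% lower. The WT median was 0.18 over the cytosolic, 0.12 over the shared and 0.26 over the mitochondrial genes, beside 0.001 over all genes. Both WT refed samples exceeded both WT fasted samples in 11 of 18 cytosolic and 13 of 16 mitochondrial genes (30.8% of all genes). Both lay below in 3 cytosolic genes and 1 mitochondrial gene (29.6% of all genes). Tars was called lower there by DESeq2, with the length offset, in the 4 WT samples alone and without either HRD1Alb refed library. The length offset also ended the call of Aars (edgeR adjusted p = 0.063).

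Wars and Aars, the tryptophan and alanine enzymes of the cytosol, were called in both genotypes. Wars read 19.8 and 18.1 CPM in WT fasted, 17.9 and 16.7 CPM in HRD1Alb fasted, 41.1 and 32.3 CPM in WT refed, and 57.4 and 52.2 CPM in HRD1Alb refed samples. All 4 refed samples exceeded all 4 fasted samples, with a log2 fold change of 0.96 ± 0.18 (SE, edgeR adjusted p = 0.0399) in WT and 1.66 ± 0.18 (adjusted p = 0.00462) in HRD1Alb liver. Aars read 229 and 219.5 CPM in WT fasted, 167 and 173.5 CPM in HRD1Alb fasted, 381 and 366 CPM in WT refed, and 470.3 and 456 CPM in HRD1Alb refed samples. With TMM factors the groups did not overlap, with HRD1Alb lowest of all when fasted and highest of all when refed. With library totals the fasted genotypes overlapped, at 201 and 183.7 CPM in WT and 185.2 and 195.6 CPM in HRD1Alb samples, and the fasted genotype change of -0.40 became -0.01. The refeeding change was 0.74 ± 0.14 (SE, edgeR adjusted p = 0.046) in WT and 1.44 ± 0.14 (adjusted p = 0.00404) in HRD1Alb liver. Of the exon bases of Aars, 14.3% overlap Exosc6 on the same strand, whose mean level was 4.97 to 14.8 CPM over the groups.

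The remaining calls were in HRD1Alb liver alone. Yars read 32.7 and 30.4 CPM in WT fasted, 24.3 and 25.8 CPM in HRD1Alb fasted, 42.7 and 36.3 CPM in WT refed, and 55.6 and 69.6 CPM in HRD1Alb refed samples, a refeeding change of 1.32 ± 0.18 (SE, edgeR adjusted p = 0.0087). Cars read 22.6 and 19.6 CPM in WT fasted, 18.9 and 17.6 CPM in HRD1Alb fasted, 25.4 and 24.0 CPM in WT refed, and 34.2 and 43.5 CPM in HRD1Alb refed samples, a change of 1.09 (edgeR adjusted p = 0.0149). With TMM factors the HRD1Alb samples of both genes were the lowest when fasted and the highest when refed. The fasted order turned with the scaling: with library totals Cars read 19.8 and 16.4 CPM in WT fasted against 20.9 and 19.8 CPM in HRD1Alb fasted samples, and the fasted groups of Yars overlapped. Hars (histidine) read 41.3 and 45.3 CPM in WT fasted, 38.2 and 38.3 CPM in HRD1Alb fasted, 54.5 and 49.6 CPM in WT refed, and 61.6 and 71.5 CPM in HRD1Alb refed samples, a change of 0.80 (edgeR adjusted p = 0.0243). With library totals its fasted order reversed, to 36.2 and 37.9 CPM in WT against 42.3 and 43.2 CPM in HRD1Alb samples. The refed HRD1Alb samples of Yars, Cars and Hars were the highest under both scalings.

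Both subunits of the cytosolic phenylalanine enzyme rose with refeeding in HRD1Alb liver. Farsa, its alpha subunit, read 26.9 and 24.7 CPM in WT fasted, 19.9 and 20.4 CPM in HRD1Alb fasted, 33.1 and 32.0 CPM in WT refed, and 37.5 and 32.2 CPM in HRD1Alb refed samples. Farsb read 50.6 and 54.2 CPM in WT fasted, 40.9 and 38.9 CPM in HRD1Alb fasted, 53.4 and 52.7 CPM in WT refed, and 59.99 and 66.2 CPM in HRD1Alb refed samples. Their refeeding changes in HRD1Alb liver were 0.79 and 0.66 (edgeR adjusted p = 0.0246 and 0.0322). With TMM factors both WT refed samples exceeded both WT fasted ones for Farsa, whereas the WT feeding states overlapped for Farsb. Between the HRD1Alb refed samples Farsa was then higher in replicate 1 and Farsb in replicate 2. With library totals the WT refed samples exceeded the WT fasted ones for both genes, and both genes were higher in HRD1Alb refed replicate 1. The fasted HRD1Alb samples of both lay below WT with TMM factors and overlapped WT with library totals. Rars (arginine) read 46.6 and 41.7 CPM in WT fasted, 49.0 and 41.0 CPM in HRD1Alb fasted, 57.7 and 55.8 CPM in WT refed, and 76.2 and 76.9 CPM in HRD1Alb refed samples, a change of 0.77 (edgeR adjusted p = 0.028). Its fasted groups overlapped with TMM factors. With library totals the HRD1Alb fasted samples of Rars lay above WT, at 54.3 and 46.2 against 40.9 and 34.9 CPM. The refeeding changes of Sars, Gars and Vars in HRD1Alb liver were 0.76, 0.77 and 0.68.

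Of the 3 mitochondrial genes that rose with refeeding in HRD1Alb liver, Ears2 (glutamate) changed most. It read 12.6 and 12.6 CPM in WT fasted, 12.9 and 11.2 CPM in HRD1Alb fasted, 20.3 and 17.0 CPM in WT refed, and 26.3 and 34.7 CPM in HRD1Alb refed samples, a change of 1.34 ± 0.20 (SE, edgeR adjusted p = 0.0119). Tars2 (threonine) read 27.7 and 21.9 CPM in WT fasted, 26.9 and 24.0 CPM in HRD1Alb fasted, 35.4 and 33.9 CPM in WT refed, and 41.7 and 51.9 CPM in HRD1Alb refed samples, a change of 0.88 (edgeR adjusted p = 0.0312). Yars2 (tyrosine) read 19.0 and 19.4 CPM in WT fasted, 15.6 and 14.0 CPM in HRD1Alb fasted, 21.9 and 22.7 CPM in WT refed, and 23.4 and 29.6 CPM in HRD1Alb refed samples, a change of 0.84 (edgeR adjusted p = 0.0284). In each of the 3 the highest sample was HRD1Alb refed replicate 2, which differs from replicate 1 by the length trend described above. Without that sample all 3 were still called, among 17 synthetases (19.7% of all genes).

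The count of 14 also leaned on single libraries and on the shared spread. Without HRD1Alb refed replicate 1 it was 25 (51.4% of all genes), including 2 lower. Leaving out either WT fasted library left 5 (Aars, Cars, Wars, Yars and Ears2, with 4.43 to 4.66% of all genes), and leaving out either WT refed library left these except Cars (3.05 to 3.10% of all genes). Leaving out either HRD1Alb fasted library left 0 (0.102 to 0.239% of all genes), and a fit to the 4 HRD1Alb samples alone called 0 of all genes. The WT count of 2 became 0 when any fasted or WT refed library was left out (0 to 0.211% of all genes), and 8 without either HRD1Alb refed library (17.0 to 17.2% of all genes). Scaling by library totals, added after the data were seen, ended the calls of Farsa, Rars and Vars in HRD1Alb liver, leaving 11, and those of Aars and Wars in WT liver. None of the 8 macrophage markers was called in either refeeding comparison. Of the 8 hepatocyte markers 1, Cyp2e1, was called lower with refeeding in HRD1Alb liver (log2 fold change -0.78, edgeR adjusted p = 0.0425), against 5.05% of all genes. In WT liver no hepatocyte marker was called.

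**Figure D3:**
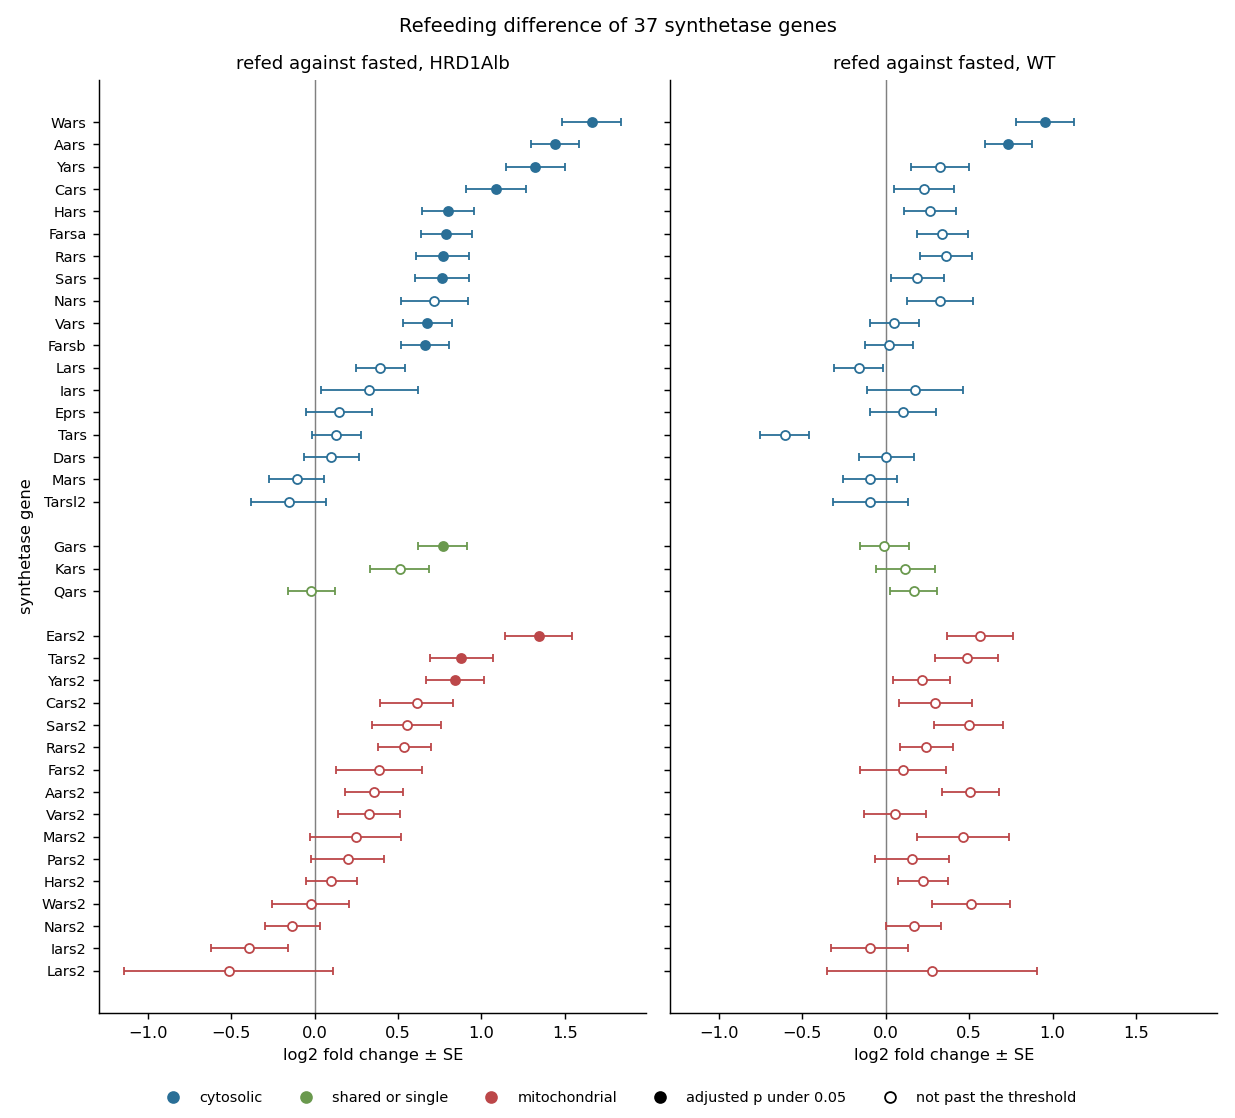
Log2 fold change of refed against fasted (x axis, with SE) for each of the 37 synthetase genes (y axis, grouped by class), in HRD1Alb (left) and WT liver (right); filled points have an edgeR adjusted p under 0.05. Of the filled points 14 are in HRD1Alb liver, 10 of them cytosolic, and 2 (Wars and Aars) in WT liver.

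The cytosolic and shared genes were also read by whether their enzymes sit in the multi-tRNA synthetase complex. This complex gathers 8 of the listed enzymes (Dars, Eprs, Iars, Kars, Lars, Mars, Qars and Rars) on scaffold proteins. For refeeding in HRD1Alb liver, 1 of these 8 was called higher, Rars, with 6 positive changes and a median log2 fold change of 0.24. Of the 13 genes outside the complex 10 were called higher, with 12 positive changes and a median of 0.77. Among all genes 5.43% were called higher. The groups were described by these counts and no test of the difference was made. The calls also moved with the setting. With the length offset Eprs in the complex and Nars outside it were called too. With library totals Rars in the complex and Farsa and Vars outside it were not called. The lowest changes in the complex were 0.10 for Dars, -0.02 for Qars and -0.11 for Mars. By catalytic fold, 7 of 18 class I and 7 of 18 class II enzymes rose, with Eprs, which holds an enzyme of each class, left out.

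Whether refeeding acted differently in the 2 genotypes was tested with the interaction term. No synthetase was called by edgeR, and 0% of all genes were called higher and 0% lower, so the count says nothing particular about synthetases. At an unadjusted p under 0.05 there were 13 synthetases, all with a positive interaction. The share of all genes at this unadjusted threshold was not taken, so the 13 have no background beside them. For Tars it came from a change of -0.61 in WT and 0.13 in HRD1Alb liver. DESeq2 and limma-trend called 0 synthetases, with DESeq2 calling 105 of all genes. The largest interaction was that of Yars, 0.999 ± 0.25 (SE, edgeR adjusted p = 0.558). The median interaction was 0.54 over the cytosolic and 0.05 over the mitochondrial genes, beside 0.03 over all genes. Without HRD1Alb refed replicate 1, 17 synthetases were called (33.4% of all genes), 15 of them positive, and without replicate 2 none.

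The cytosolic and mitochondrial classes were set against each other as the difference of their median log2 fold changes. For HRD1Alb against WT it was 0.24 in refed and -0.13 in fasted liver, and the pooled SD of this difference between samples of a group was 0.140. Per sample, the cytosolic median less the mitochondrial median (each gene centred on its mean over 8 samples) was 0.36 and 0.02 in HRD1Alb refed, -0.09 and -0.10 in WT refed, 0.03 and -0.16 in HRD1Alb fasted, and 0.03 and 0.00 in WT fasted samples. Both HRD1Alb refed samples exceeded both WT refed samples, but they were farther from each other than the lower one was from WT. Between these 2 samples the mitochondrial genes were 0.30 higher and the cytosolic genes 0.09 lower (log2, medians) in replicate 2. Without replicate 2 the refed difference was 0.38, and without replicate 1 it was 0.08.

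Pairs of enzymes for the same amino acid gave a second view, free of how many genes each class holds. In refed liver the cytosolic gene had the higher genotype change in 11 of 13 pairs, by a median of 0.42 (log2), and in fasted liver in 6 of 13 pairs, by a median of -0.13. The 2 refed exceptions were Mars/Mars2 (-0.22) and Tars/Tars2 (-0.41). Leaving out either HRD1Alb refed sample kept the refed count at 11, and leaving out WT refed replicate 1 made it 10. For the interaction of genotype and feeding the cytosolic gene was the higher in 13 of 13 pairs, by a median of 0.52. The count was 12 of 13 pairs when the length trend was removed, and also 12 of 13 without HRD1Alb refed replicate 2. The pairs share their samples and are no replicates of each other.

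Of the 13 pairs, Wars/Wars2 had the largest difference of refeeding changes in HRD1Alb liver, 1.69. The log2 CPM ratio of Wars to Wars2 was 1.60 and 1.81 in WT fasted, 0.98 and 0.97 in HRD1Alb fasted, 2.37 and 1.89 in WT refed, and 2.51 and 2.85 in HRD1Alb refed samples. None of the 4 groups overlapped, and HRD1Alb liver held both the lowest and the highest ratios. The ratio of Iars to Iars2 was -0.47 and -0.58 in WT fasted, -0.12 and -0.26 in HRD1Alb fasted, -0.24 and -0.27 in WT refed, and 0.63 and 0.36 in HRD1Alb refed samples. It turned positive in the HRD1Alb refed samples alone, although Iars itself read 112.3 and 57.5 CPM in them and Iars2 72.8 and 44.7 CPM. Of the exon bases of Iars2, 22.9% overlap Rab3gap2 on the opposite strand, and the strand setting of the counting is not given in the sources used here.

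**Figure D4:**
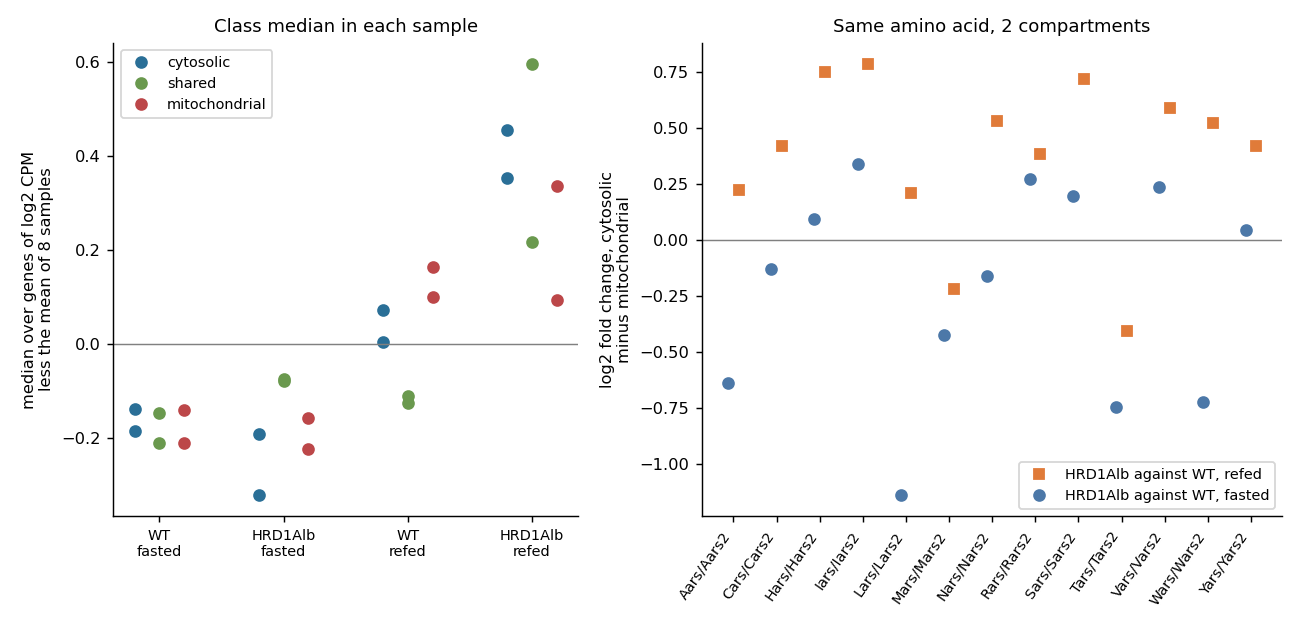
Left, the median over the genes of each class of log2 CPM, with each gene centred on its mean over the 8 samples, for each sample (points) of the 4 groups. Right, the log2 fold change of HRD1Alb against WT of the cytosolic gene minus that of its mitochondrial partner for 13 amino acids, in refed (orange squares) and fasted liver (blue circles); 11 squares and 6 circles lie above 0.

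Genes that work beside the synthetases were read from lists of their own. The 3 scaffold proteins of the multi-tRNA complex, Aimp1, Aimp2 and Eef1e1, all had positive changes in HRD1Alb refed liver, and 1 of 3 was called. Eef1e1 read 14.5 and 14.1 CPM in WT refed and 25.1 and 22.9 CPM in HRD1Alb refed samples, a log2 fold change of 0.75 (edgeR adjusted p = 0.0455). Refeeding in HRD1Alb liver raised Aimp2 by 1.03 and Eef1e1 by 1.20, whereas the median of the 8 enzymes they hold was 0.24. Of the 3 amidotransferase subunits that make mitochondrial glutamine tRNA, none was called for genotype, and Qrsl1 alone rose with refeeding in HRD1Alb liver, by 0.95 (edgeR adjusted p = 0.0238).

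The ATF4 pathway was read beside the synthetases as a list of 19 genes, chosen with earlier results of these data known. In refed liver 12 of 19 were called higher in HRD1Alb than in WT samples and none lower, against 7.09% and 4.84% of all genes. The median log2 fold change was 1.83 over the list, beside 0.33 over the cytosolic synthetases. Ddit3, which encodes CHOP, read 16.1 and 11.3 CPM in WT refed and 251 and 241.5 CPM in HRD1Alb refed samples, a change of 4.17 (edgeR adjusted p = 0.0013), and Atf4 itself read 135.6 and 181.8 CPM and 243 and 269 CPM, a change of 0.69 (adjusted p = 0.0676). In fasted liver 2 of 19 were called higher, Ddit3 and Psat1, against 0.921% of all genes. With TMM factors the fasted median was 1.10 over the list and -0.20 over the cytosolic synthetases, the latter 0.18 with library totals. Refeeding in HRD1Alb liver raised 7 of 19, against 5.43% of all genes called higher. In WT liver it raised Ddit3 and lowered Chac1, 1 gene each way, against 1.20% and 1.41% of all genes. Mars, whose 3' end overlaps Ddit3 by 68 bases on the opposite strand, did not follow it, with 69.1 and 63.3 CPM in WT refed and 51.2 and 63.7 CPM in HRD1Alb refed samples.

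The promoters were searched for the core of the C/EBP-ATF response element, the element that ATF4 binds together with C/EBP proteins. The letters searched were TGATGNAA and, for the other strand, TTNCATCA, in RefSeq windows (GRCm38.p6) from 250 bases before to 50 bases after each transcription start. Windows were found for 28 of the 37 genes, and Cars, Hars, Lars, Nars, Rars, Vars, Wars, Hars2 and Pars2 had none. The motif lay in 4 of 11 cytosolic, 1 of 3 shared and 0 of 14 mitochondrial genes with a window, compared with 4.51% of all 27025 genes with a window. Of the 9 matched genes that rose with refeeding in HRD1Alb liver, 3 held it (Aars, Gars and Yars), as did 2 of the other 19 (Iars and Tars). More of the other 19 are mitochondrial, a class in which no gene held the motif. These counts therefore cannot tell class and refeeding response apart. A match is only these letters in a window and not a measured binding site.

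A site of each gene is shown on the strand of its gene with the motif in capitals, to show which genes carry it and how near the start. Positions count the first transcribed base as 1. The motif begins at position 10 in Aars (chr8:111033840-111033869, plus strand), at -30 in Gars (chr6:55037960-55037989, plus strand), at 4 in Yars (chr4:129189895-129189924, plus strand), at 8 in Iars (chr13:49682126-49682155, plus strand) and at -15 in Tars (chr15:11399655-11399684, minus strand).
Aars: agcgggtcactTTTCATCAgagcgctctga
Gars: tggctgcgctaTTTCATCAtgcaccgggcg
Yars: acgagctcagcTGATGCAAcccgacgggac
Iars: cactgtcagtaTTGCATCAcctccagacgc
Tars: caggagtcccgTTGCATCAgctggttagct
Of these 5 genes, Aars, Gars and Yars were among the 14 that rose, Iars had a refeeding change of 0.33 in HRD1Alb liver and Tars one of 0.13, neither of them called. Sars, with the largest genotype change in refed liver, had no match in its window, which says only that these letters are not in it.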

How the data were processed

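Liver RNA of 8 samples in 4 groups, assigned by their labels, was sequenced. The authors deposited whole-number read counts per gene symbol, 1 file per sample, with no normalization. Their methods name TRIzol extraction, an Illumina NextSeq instrument with 1 lane per sample, and counting with ERANGE, whereas their processing notes name cutadapt, STAR, HTSeq, DESeq2 and mm10. Versions, annotation and strand setting are not given in the sources used here.

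The list of members and every other gene list were chosen with earlier results of these data known. Testing used edgeR 4.0.16 under R 4.3.3. Genes passing filterByExpr (minimum count 10, minimum total 15) were kept, 14328 of 23337. Library sizes were scaled by TMM. A quasi-likelihood model with 1 coefficient per group was fitted to the 8 samples, which share the estimate of the spread (common dispersion 0.0573). P-values were adjusted by Benjamini-Hochberg over all tested genes, and a gene was called at an adjusted p under 0.05. For each log2 fold change, its size over the root of the F statistic gave the SE. With 2 against 2 samples an exact permutation test cannot go below p = 0.333 and was not used. Class medians, pairs and lists are descriptions with no test. Values in every sample were given for genes called in any comparison and for the highest and lowest of each class in the refed genotype comparison, 17 in all. Lengths, positions and overlaps came from GENCODE M21 (GRCm38), promoter windows from RefSeq. Alternatives were RLE, DESeq2 1.42.0, limma-trend (limma 3.58.1, prior count 1), other filters, fits to 4 samples, a replicate block, a transcript length offset, a 2-fold rule and each sample left out. Scaling by library totals was added after the data were seen. Statistical steps were tested on simulated data. In them edgeR called 24% of the genes set 2-fold higher in the refed genotype comparison, so a gene that is not called can still differ. Some genes of tRNA charging and a promoter site are not reported here. Symbols without a position could not be checked for overlaps. Plots used matplotlib 3.10.9 under Python 3.11.15.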

Additional observations from a re-analysis of the deposited data

How the results depend on the processing

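RLE scaling and limma-trend gave the same synthetase counts as the edgeR fit in all 5 comparisons. For HRD1Alb against WT in refed liver (3 called), DESeq2 called 7 (22.3% of all genes), a filter of at least 10 counts in every sample 5 (12.3%), the 4 refed samples alone 0 (0%), library totals without TMM factors 10 (15.8%), against 11.9% of all genes in the edgeR fit, and the rule of a 2-fold change with an unadjusted p under 0.05 gave 0. In fasted liver (0 called, 1.35% of all genes), DESeq2 called 1 (7.64%), the 4 fasted samples alone 2 (14.6%), the length offset 2 (5.64%), the replicate block with the length offset 1 (4.39%) and library totals 1 (6.19%). For refeeding in WT liver (2 called, 2.61% of all genes), no filter on low counts gave 1 (2.46%), the 4 WT samples alone 5 (14%), the replicate block 1 (2.13%), the block with the length offset 1 (4.74%), library totals 0 (1.66%) and the 2-fold rule 0. For refeeding in HRD1Alb liver (14 called, 10.5% of all genes), the 4 HRD1Alb samples alone gave 0 (0%) and the 2-fold rule 5. Among all 14328 tested genes, the 2-fold rule took 1634 as higher and 692 as lower for genotype in refed liver. For refeeding it took 444 as higher and 537 as lower in WT liver, and 997 and 942 in HRD1Alb liver. The cause of the shifts between settings was not tested.

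With each sample left out in turn, the counts ranged from 0 to 20 for genotype in refed liver, 0 to 7 in fasted liver, 0 to 8 for refeeding in WT liver, 0 to 25 in HRD1Alb liver and 0 to 17 for the interaction. A group cut to 1 sample was assumed to vary like the other groups. The refed cytosolic minus mitochondrial difference ranged from 0.0801 to 0.3842. No call changed direction under any setting tried. Samples with the same replicate number share only that number, as far as the labels say: the correlation of their deviations from the group means was 0.0161 to 0.179 over the 6 pairs of groups. The replicate block removed Aars from the calls in WT liver and changed no other count of synthetases. No setting varied the depth, and its part in the precision was not tested.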
